A study of Papio hamadryas with 4 samples.

Results

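The smooth muscle contractile genes described here are ACTG2, MYH11, ACTA2, TAGLN, CNN1, MYL9, LMOD1, SYNPO2, SMTN and CALD1. They were picked by name, with earlier results of these data known. Every probe whose platform annotation carries one of these symbols was taken. This gave 13 probes for 10 genes out of 23687 probes for 18774 genes with a symbol. RNA from kidney biopsies of baboons, Papio hamadryas, was hybridised to Illumina bead arrays designed on human genes. The 4 groups are the high SLC phenotype (HSLC) on a high and on a low sodium diet, and the normal SLC phenotype (NSLC) on a high and on a low sodium diet, each diet kept for 6 weeks. Each group is 1 array, so there is no spread between replicates. SLC is not spelled out in the labels, the study's title links the phenotypes to blood pressure, and the sources used here give neither the animals' age nor the number of animals per array nor the order of the diets.

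Smooth muscle cells shorten when myosin filaments pull on actin filaments. Contraction is switched on by phosphorylation of the myosin regulatory light chain, and it is tuned by proteins that sit on the actin filament. In the kidney such cells line the arteries and arterioles, with related contractile cells in the glomerulus and around capillaries, and visceral smooth muscle lies in the wall of the renal pelvis. ACTA2 encodes the actin typical of vascular smooth muscle and of myofibroblasts, and ACTG2 the actin typical of visceral smooth muscle. MYH11 encodes the smooth muscle myosin heavy chain. Many of these genes are known targets of serum response factor and its partner myocardin.

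The deposited values are linear probe intensities, with array medians of 68.2 on high and 72.1 on low sodium in HSLC, and 79.5 on high and 77.7 on low sodium in NSLC. For the ratios below the arrays were background-corrected, quantile-normalized and put on the log2 scale, and detection of a gene on an array means an intensity above the median of that array. A log2 ratio of 1 is 2-fold, the size rule used for a pair of arrays, which is not a test. The standard deviation of all log2 diet ratios was 0.27 in HSLC and 0.28 in NSLC. For 207 genes with 2 bright probes, the log2 diet ratio of a probe scattered with a standard deviation of 0.17 in HSLC and 0.18 in NSLC. This scatter between probes is the spread of the difference of the 2 probes divided by the square root of 2. A difference of 2 ratios scatters more. Kidney transcripts were present on every array, with 10 of 11 proximal tubule markers detected on all 4. The HSLC low sodium array also held skeletal muscle transcripts. The summed intensity of 14 skeletal muscle markers was 1571 on high and 19202 on low sodium in HSLC, and 1713 on high and 2485 on low sodium in NSLC. The NSLC low sodium array held some of this signal too, with 12 markers detected there and 9 on NSLC high sodium, and TNNC2 at 86.4 on high and 307 on low sodium. All 7 skeletal muscle markers detected on all 4 arrays fell in the diet fit described below, where 7.05% of all genes fell. That fit averages the phenotypes, and the median log2 diet ratio of these markers was -2.83 in HSLC and -0.57 in NSLC.

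On the high sodium diet the 2 muscle actins, the myosin heavy chain and transgelin had more signal than on the low sodium diet in both phenotypes. ACTG2 stood out, at 2.40-fold higher in HSLC and 5.44-fold higher in NSLC. MYH11, ACTA2 and TAGLN followed at 1.63-fold, 1.89-fold and 1.71-fold in HSLC and at 2.84-fold, 1.99-fold and 1.77-fold in NSLC. MYL9, CALD1 and SMTN had log2 ratios between 0.02 and 0.34, and LMOD1 was below 0 in both phenotypes. Of 8 members detected on all 4 arrays, 7 had a ratio above 0 in each phenotype, against 52.6% of all genes in HSLC and 56.4% in NSLC. In HSLC 1 member was at 2-fold or more, where 0.529% of all genes were, and in NSLC 2 members were, where 0.509% of all genes were. No member was 2-fold lower, as 0.232% of all genes were in HSLC and 0.156% in NSLC.

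**Figure D1:**
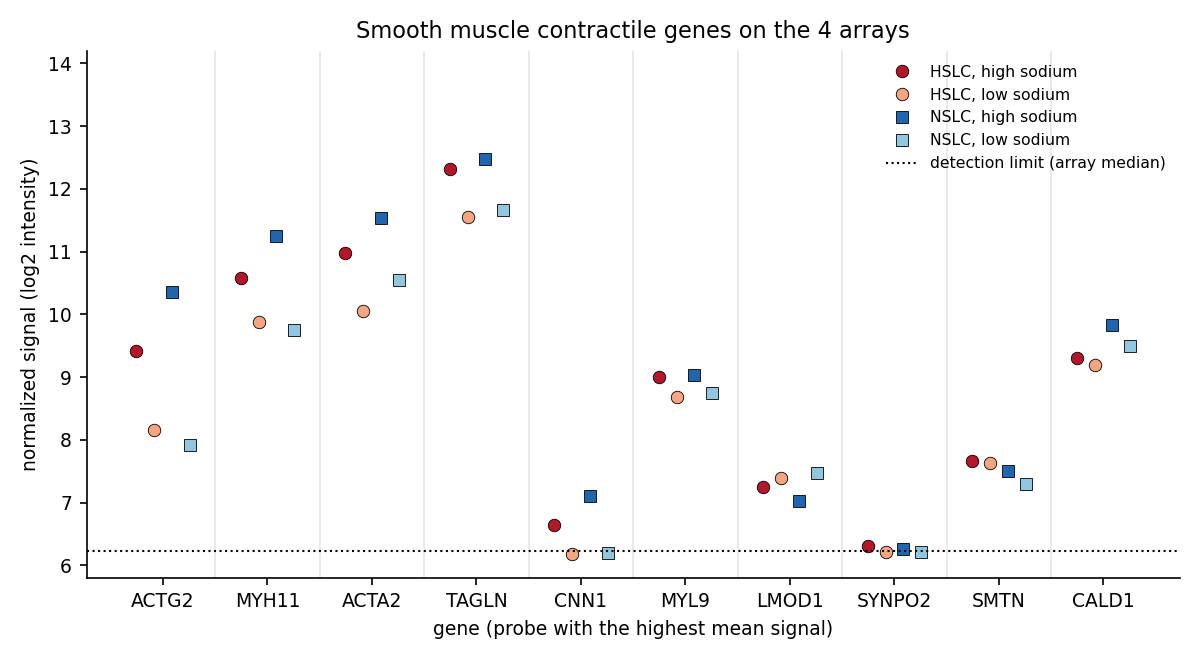
Normalized signal (log2 intensity) of the 10 genes on each of the 4 arrays, 1 point per array, for the probe with the highest mean signal. The dotted line is the detection limit. ACTG2 runs from 7.92 to 10.36, with both high sodium arrays above both low sodium arrays, whereas CNN1 and SYNPO2 lie at or below the limit on both low sodium arrays.

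The actins come first in the contractile unit. ACTG2 had deposited intensities of 675 on high and 263 on low sodium in HSLC, and 1655 on high and 222 on low sodium in NSLC. Both high sodium arrays lay above both low sodium arrays. On low sodium the log2 ratio of HSLC to NSLC was 0.23, higher than that of 95.2% of all genes. Its log2 diet ratio was 1.27 in HSLC and 2.44 in NSLC, higher than that of 99.8% and 99.97% of all genes in those comparisons. ACTA2 had intensities of 1920.4 on high and 954 on low sodium in HSLC, and 3684 on high and 1286 on low sodium in NSLC. The high sodium arrays were again the higher ones, and the HSLC array was below the NSLC array on each diet. Its log2 diet ratio was 0.92 in HSLC and 0.99 in NSLC. ACTG2 therefore exceeded ACTA2 by 0.35 in HSLC and by 1.45 in NSLC on the log2 ratio scale. The coding sequences of actin genes are much alike, no probe sequence was used here, and binding of other actin transcripts to these probes was not tested.

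The myosin heavy chain MYH11 had intensities of 1481 on high and 849.9 on low sodium in HSLC, and 3071 on high and 727 on low sodium in NSLC. The NSLC high sodium array was the highest. On low sodium the log2 ratio of HSLC to NSLC was 0.13, higher than that of 84.6% of all genes. The log2 diet ratio was 0.71 in HSLC and 1.504 in NSLC. MYL9, the regulatory light chain that is phosphorylated to start contraction, had intensities of 509 on high and 375 on low sodium in HSLC, and 652 on high and 366 on low sodium in NSLC. Its log2 ratio was 0.32 in HSLC and 0.30 in NSLC, and its second probe gave 0.19 and 0.28. The 2 MYL9 probes were therefore within the scatter between probes. The deposited intensities of bright genes were higher as a whole on the NSLC high sodium array, with a 99th percentile of 3298 there and 2320.03 on the NSLC low sodium array, and quantile normalization removes such a shift.

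TAGLN, which encodes the actin-binding protein transgelin (SM22), has 2 probes. The bright one, ILMN_1778668, had intensities of 4865 on high and 2718 on low sodium in HSLC, and 7112 on high and 2882 on low sodium in NSLC. The high sodium arrays did not overlap the low sodium arrays, and the log2 diet ratio was nearly equal in the phenotypes, at 0.77 in HSLC and 0.82 in NSLC. The other TAGLN probe, ILMN_1706783, lay just above the array medians, with intensities of 78.2, 94.5, 92.3 and 102 on the same arrays in the same order. It gave log2 ratios of -0.20 in HSLC and -0.19 in NSLC, so the dim probe and the bright probe disagree in sign. The mean over both probes was 0.29 in HSLC and 0.32 in NSLC.

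Calponin (CNN1), which holds back the myosin motor on the actin filament, had intensities of 92.4 on high and 70.1 on low sodium in HSLC, and 152 on high and 76.5 on low sodium in NSLC. It was detected on both high sodium arrays and on neither low sodium array. On the normalized scale, with the low sodium array at its detection limit, CNN1 was at least 1.34-fold higher on high sodium in HSLC and at least 1.85-fold higher in NSLC. These bounds hold for that scale alone, since the probe's deposited intensities gave 1.32-fold in HSLC and 1.99-fold in NSLC. In the series matrix, a second deposited value table, both ratios were 1.33-fold. CALD1 encodes caldesmon, another actin-bound brake on the motor that also has a non-muscle form. Its detected probe had intensities of 627 on high and 525 on low sodium in HSLC, and 1139 on high and 611 on low sodium in NSLC. Both high sodium intensities were above both low sodium ones, but after normalization the diets overlapped, with 9.30 for HSLC on high sodium and 9.49 for NSLC on low sodium on the log2 scale. The log2 ratio was 0.12 in HSLC and 0.34 in NSLC, and the second CALD1 probe was below the array median on all 4 arrays.

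The remaining members are organizers of the actin filament. SMTN, smoothelin, had intensities of 194 on high and 186 on low sodium in HSLC, and 206 on high and 154 on low sodium in NSLC. The log2 ratio was 0.02 in HSLC and 0.20 in NSLC. The diets did not overlap in these intensities, but they did after normalization, with 7.501 for NSLC on high sodium and 7.64 for HSLC on low sodium on the log2 scale. LMOD1, a leiomodin that starts new actin filaments, ran the other way, with 142 on high and 158 on low sodium in HSLC, and 143 on high and 171 on low sodium in NSLC. Both LMOD1 values on high sodium were below both on low sodium, as were those of 26.2% of all genes, with log2 ratios of -0.15 in HSLC and -0.44 in NSLC. SYNPO2, an actin-bundling protein of the Z-disc and dense bodies, stood at the detection limit throughout, with intensities between 71.7 and 81.5. SYNPO2 therefore gives no usable diet ratio on these arrays.

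**Figure D2:**
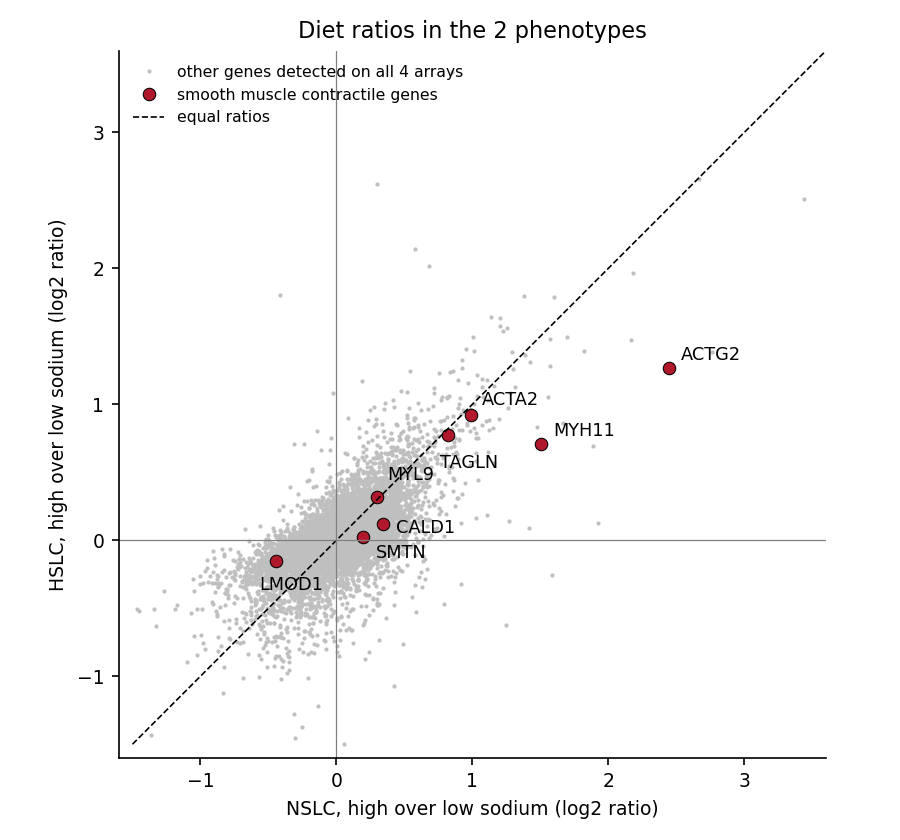
Log2 ratio of high over low sodium in HSLC (vertical axis) against NSLC (horizontal axis) for each gene detected on all 4 arrays (grey) and for the 8 smooth muscle contractile genes among them (red). The dashed line marks equal ratios, and 14 genes with an HSLC ratio below -1.6 are outside the plot. ACTA2, TAGLN and MYL9 lie near the line, and ACTG2 and MYH11 lie on the NSLC side of it.

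Ordered by the log2 diet ratio, the members ran ACTG2, ACTA2, TAGLN, MYH11, MYL9, CALD1, SMTN and LMOD1 in HSLC. In NSLC the order was ACTG2, MYH11, ACTA2, TAGLN, CALD1, MYL9, SMTN and LMOD1. ACTA2 and TAGLN differed by 0.14 in HSLC and 0.17 in NSLC, which is within the scatter between probes of a gene. CALD1 and SMTN differed by 0.10 in HSLC and 0.14 in NSLC, also within it. ACTG2 was ahead of MYH11 by 0.56 in HSLC and by 0.94 in NSLC. The median log2 ratio of the 8 members was 0.51 in HSLC and 0.58 in NSLC, beside 0.01 and 0.04 over all genes. In bulk tissue a larger number of smooth muscle cells and more transcript per cell cannot be told apart.

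The change with diet common to HSLC and NSLC was tested with limma in a model with a diet term and a phenotype term and no interaction. ACTG2 rose on high sodium by 1.85 ± 0.18 on the log2 scale (standard error, limma adjusted p = 1.98e-05). MYH11 rose by 1.11 ± 0.14 (limma adjusted p = 0.000153), ACTA2 by 0.95 ± 0.09 (1.34e-05) and TAGLN by 0.80 ± 0.09 (5.04e-05). Over the 10 alternative settings the adjusted p was at most 0.0248 for ACTG2, 0.0349 for MYH11, 0.00707 for ACTA2 and 0.0379 for TAGLN. MYL9 rose by 0.31 ± 0.09 (limma adjusted p = 0.0298), but its adjusted p was 0.0504 to 0.0717 in 4 of the alternatives. CALD1, at 0.23 ± 0.09 (adjusted p = 0.116), SMTN, at 0.11 ± 0.09 (adjusted p = 0.455), and LMOD1, at -0.30 ± 0.10 (adjusted p = 0.0521), did not pass. CALD1 did pass without normalization (adjusted p = 0.0173) and with median scaling (0.00977), within a range of 0.00977 to 0.173 over the alternatives, and LMOD1 fell with an offset of 16 (0.0297), the lowest of its range up to 0.583. So 5 of 8 members rose and 0 fell in the limma fit, where 8.72% of 11908 genes rose and 7.05% fell. Since the members were chosen with earlier results of these data known, such counts beside all genes describe the members and do not test them. At an unadjusted p of 0.05, 6 members were higher and 1, LMOD1, was lower, where 16.5% of all genes were higher and 13.3% lower. For the same 5 members both high sodium arrays lay above both low sodium arrays, as they did for 31% of all genes. The model leaves 1 residual degree of freedom, in which the disagreement of the phenotypes' diet ratios serves as error. That error is moderated over genes with 12.6 prior degrees of freedom, so the standard errors rest mostly on the other genes. For ACTG2, with log2 diet ratios of 1.27 in HSLC and 2.44 in NSLC, the standard error is small beside the gap between the phenotypes. Animal-to-animal spread does not enter the model.

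Because the HSLC low sodium array held skeletal muscle transcripts, the HSLC high sodium array was also set against the NSLC low sodium array. This comparison was chosen after seeing the data, and its 2 arrays differ in phenotype as well as in diet. Diet and phenotype cannot be told apart in these ratios. ACTG2 was then 2.82-fold higher, MYH11 1.79-fold, TAGLN 1.58-fold and ACTA2 1.35-fold. ACTA2 moved most, at a log2 ratio of 0.43 in place of 0.92, and CALD1 changed sign, to -0.18. These shifts equal the ratios of HSLC to NSLC on low sodium, -0.49 for ACTA2 and -0.30 for CALD1. The NSLC low sodium array, used here and in the NSLC diet ratios, held less skeletal muscle signal than the HSLC one but was not free of it, and its part was not tested.

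The second question of the design is whether the phenotypes differ. On the high sodium diet 7 of 10 members were lower in HSLC than in NSLC, where 56.1% of all genes were above 0, with ACTG2 at a log2 ratio of -0.95, MYH11 at -0.66, ACTA2 at -0.56, CALD1 at -0.53 and CNN1 at -0.46. No member reached 2-fold, where 0.0959% of all genes were 2-fold higher and 0.352% 2-fold lower, and 2 were at 1.5-fold or more below NSLC, as were 2.16% of all genes. On the low sodium diet ACTA2 was at -0.49 and CALD1 at -0.30, whereas ACTG2 was at 0.23, MYH11 at 0.13 and SMTN at 0.33. There 0 of 8 detected members reached 2-fold, where 0.283% of all genes were 2-fold higher and 0.0486% 2-fold lower.

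In the limma fit ACTA2 was lower in HSLC by 0.52 ± 0.09 averaged over the diets (written as a log2 effect, -0.52, adjusted p = 0.00479), and CALD1 stood at -0.41 (adjusted p = 0.0248). These were 2 of 8 members, where 2.82% of all genes were lower and 0.823% higher in HSLC. Neither call held in the series matrix, where ACTA2 had an adjusted p of 0.0657 and CALD1 of 0.0793, within ranges over the alternatives of 1.59e-06 to 0.102 and 0.000627 to 0.169. SMTN, higher in HSLC on both diets, did not pass, at 0.24 (adjusted p = 0.194). No member was higher in HSLC by the fit, against 1 at an unadjusted p of 0.05, where 6.36% of all genes were higher.

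The difference of the diet ratios, HSLC minus NSLC, was -1.18 for ACTG2 and -0.80 for MYH11 on the log2 scale. For ACTA2 it was -0.07, for TAGLN -0.05 and for MYL9 0.02. ACTG2 was the 1 member at 2-fold, where 0.286% of all genes were 2-fold lower and 0.0672% 2-fold higher. In the series matrix the ACTG2 difference was -0.81. With 4 arrays nothing is left to test this difference with, so it was not tested.

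Each smooth muscle gene has close relatives that work in non-muscle or striated cells. Beside ACTG2 and ACTA2, the cytoplasmic actin ACTG1 had a log2 diet ratio of 0.35 in HSLC and 0.26 in NSLC, and ACTB one of -0.07 and -0.09. ACTA2 exceeded ACTB by 0.99 in HSLC and 1.08 in NSLC. The non-muscle myosin heavy chain MYH9 stood at 0.53 in HSLC and 0.69 in NSLC, MYH10 at 0.40 and 0.27, and MYH14 at -0.10 and -0.20. MYH11 exceeded MYH9 by 0.17 in HSLC, about 1 standard deviation of the scatter between probes, and by 0.81 in NSLC.

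Among the light chains MYL9 was below MYL12A by less than the scatter between probes in both phenotypes, and it exceeded MYL12B by 0.30 in HSLC but not in NSLC. MYL12A stood at 0.37 in HSLC and 0.44 in NSLC, and MYL12B at 0.02 and 0.40, beside 0.32 and 0.30 for MYL9. TAGLN2, the transgelin of many cell types, was at 0.41 in HSLC and 0.13 in NSLC, and the neuronal TAGLN3 at -0.01 and -0.25. Among calponins CNN2 was at 0.39 and 0.11 and CNN3 at 0.19 and 0.14. The striated leiomodins LMOD2 and LMOD3 were at -0.51 and 0.24 in HSLC and at -0.42 and -0.02 in NSLC, SMTNL1 at -0.15 and -0.33, and SYNPO at 0.03 and 0.06. The LMOD3 probe was bright, with intensities of 2546 on high and 2036 on low sodium in HSLC, and 3149 on high and 2204 on low sodium in NSLC. It was lowest on the HSLC low sodium array, which held the most skeletal muscle signal, and what this probe binds was not tested. Of 15 relatives detected on all arrays, 4 rose and 1 fell in the limma fit, where 8.72% of all genes rose and 7.05% fell. Those that rose were MYH9 by 0.61 (adjusted p = 0.000543), MYL12A by 0.41 (0.00695), MYH10 by 0.33 (0.022) and ACTG1 by 0.31 (0.0327). LMOD2 fell by 0.46 (adjusted p = 0.00322). MYL12B did not pass (adjusted p = 0.196). For these counts and those of the lists that follow, the share over all genes in the same fit is 8.72% risen and 7.05% fallen, and at an unadjusted p of 0.05 it is 16.5% higher and 13.3% lower.

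**Figure D3:**
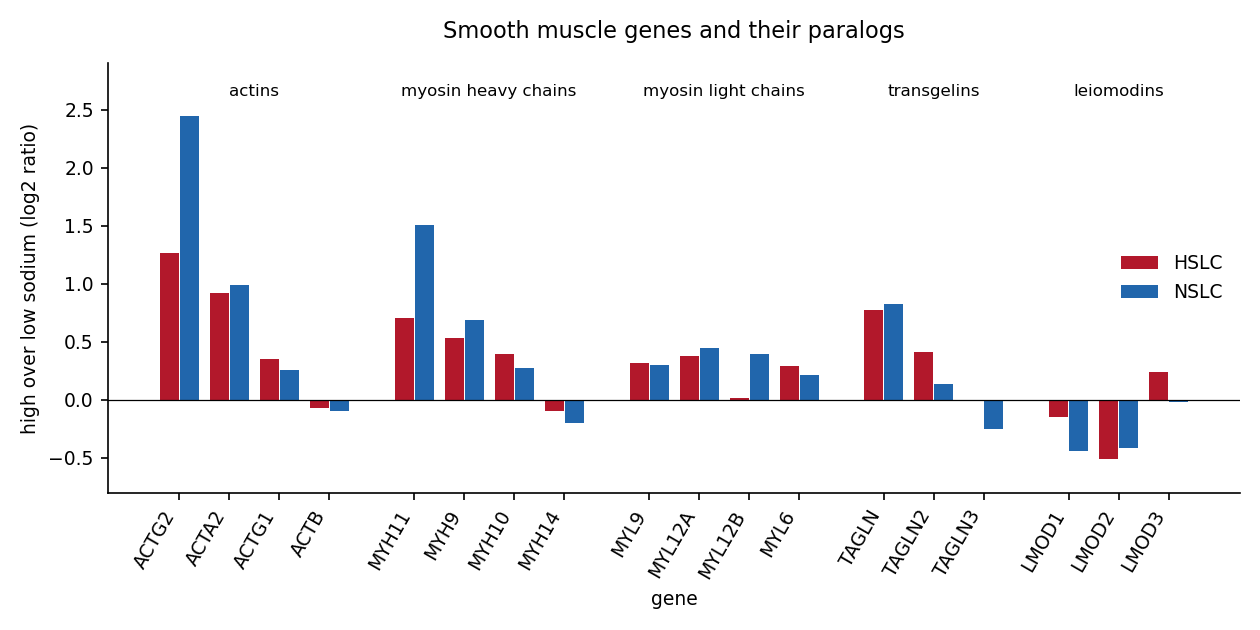
Log2 ratio of high over low sodium for smooth muscle genes and their relatives, with HSLC (red) left of NSLC (blue) for each gene and each bar 1 pair of arrays without error. ACTG2 and MYH11 exceed their non-muscle relatives most in NSLC, and MYL9 does not stand above MYL12A.

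The machinery that phosphorylates the light chain was measured by 9 genes detected on all arrays, of which 2 rose and 0 fell (8.72% and 7.05% of all genes). At an unadjusted p of 0.05, 1 was lower in limma. MYLK, the myosin light chain kinase, had intensities of 653 on high and 413 on low sodium in HSLC, and 986 on high and 437 on low sodium in NSLC. It rose by 0.58 in the limma fit (adjusted p = 0.000696). PPP1R12A, the targeting subunit of myosin phosphatase, rose by 0.30 (adjusted p = 0.0459). The essential light chain MYL6 was at 0.29 in HSLC and 0.21 in NSLC and PPP1R14A, an inhibitor of the phosphatase, at -0.18 and -0.35, and neither passed. The median log2 ratio of this list was 0.08 in HSLC and 0.04 in NSLC.

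The plaques and intermediate filaments that anchor the contractile unit held 12 detected genes, of which 7 rose and 0 fell in the limma fit (8.72% and 7.05% of all genes), with 0 lower at an unadjusted p of 0.05 too. FHL2, a LIM protein of actin-rich structures, had intensities of 1160.3 on high and 609 on low sodium in HSLC, and 1519 on high and 472 on low sodium in NSLC, and rose by 0.97 in the limma fit (adjusted p = 2.36e-05). The vimentin gene VIM, also used by fibroblasts and white blood cells, rose by 0.79 (adjusted p = 0.000149) and PGM5, a plaque protein of smooth muscle, by 0.49 (adjusted p = 0.0108). The desmin gene DES did not pass, at -0.87 in HSLC and 0.21 in NSLC. The median of this list was 0.34 in HSLC and 0.40 in NSLC.

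Among the tropomyosins and other thin filament partners, TPM1, TPM2, TMOD1 and PDLIM7 had their highest normalized signal on the HSLC low sodium array. TPM1 had intensities of 2162 on high and 2785 on low sodium in HSLC, and 2626 on high and 1478 on low sodium in NSLC. TPM2 had 1571, 1992, 1851 and 1037 on the same arrays in the same order. That array is also the one with the most skeletal muscle signal. The log2 diet ratio was -0.47 in HSLC and 0.31 in NSLC for TPM1, and -0.43 and 0.27 for TPM2. TMOD1, which caps actin filaments, stood at -0.71 and -0.03, and PDLIM7, a LIM protein on tropomyosin-bound actin, at -1.22 and -0.13. Other genes of the list, named after their values were seen, differed from these. CSRP1 was at 0.14 in HSLC and 0.25 in NSLC and TMOD3 at 0.34 and 0.27, while HSPB1 was at -0.34 and 0.14 with its highest signal on NSLC high sodium. Of 9 detected genes of this list, TMOD3 rose by 0.30 in the limma fit (adjusted p = 0.0333) and PDLIM7 fell by 0.67 (adjusted p = 0.0168), where 8.72% of all genes rose and 7.05% fell. The skeletal muscle marker CKM had 159 on high and 3538 on low sodium in HSLC, and 207 on high and 243 on low sodium in NSLC. The part of skeletal muscle in the tropomyosin, TMOD1, PDLIM7 and DES values was not tested.

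**Figure D4:**
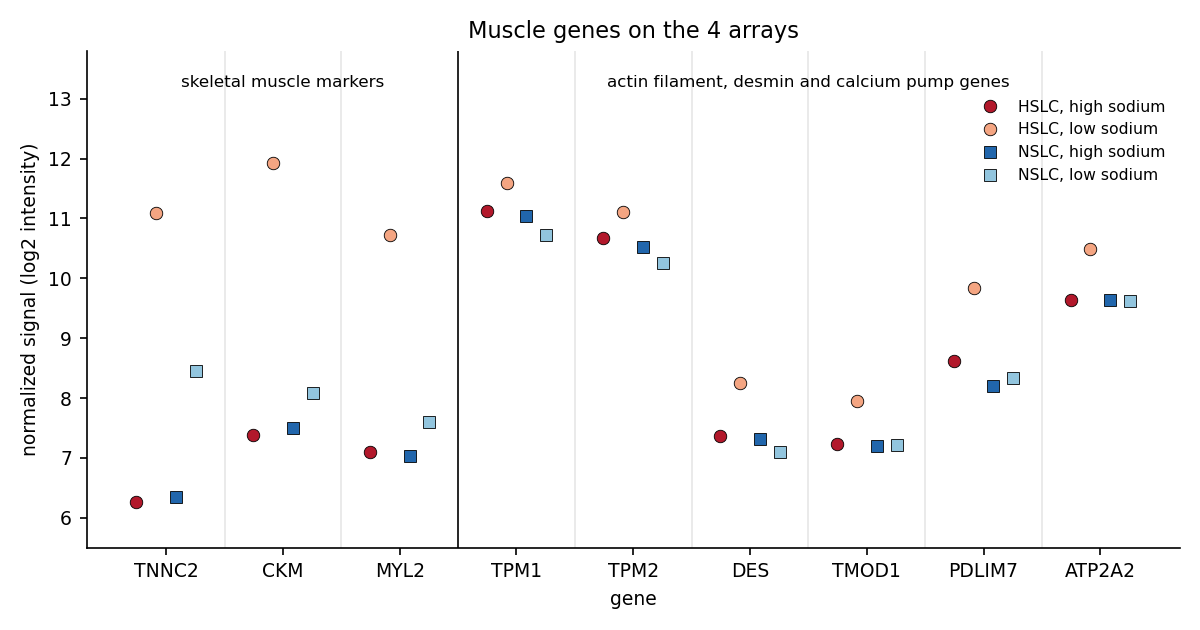
Normalized signal (log2 intensity) on each of the 4 arrays for 3 skeletal muscle markers (left of the line) and for actin filament, desmin and calcium pump genes (right of it), 1 point per array. All of these genes are highest on the HSLC low sodium array, unlike ACTG2, MYH11, ACTA2 and TAGLN.

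Of 14 detected genes for calcium handling and receptors of smooth muscle, 1 rose and 1 fell, a share near that of all genes (8.72% and 7.05%). KCNJ8, a potassium channel subunit of mural cells, rose by 0.51 in the limma fit (adjusted p = 0.00169), and KCNMA1, the large-conductance calcium-activated potassium channel, fell by 0.34 (adjusted p = 0.0245). The calcium pump gene ATP2A2 was at -0.85 in HSLC and 0.02 in NSLC and RGS5, a brake on G protein signalling in pericytes, at -0.05 and -0.43, and neither passed. The list medians were -0.05 in HSLC and 0.00 in NSLC.

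Among 8 detected regulators of the contractile programme 1 rose and 0 fell in the limma fit (8.72% and 7.05% of all genes), with 0 lower at an unadjusted p of 0.05 too. The growth factor TGFB2 had intensities of 207 on high and 91.6 on low sodium in HSLC, and 207 on high and 89.1 on low sodium in NSLC. It rose by 1.13 in the limma fit (adjusted p = 3.36e-06), with nearly equal values in the phenotypes. MEF2C was at 0.11 in HSLC and 0.38 in NSLC, KLF4 at 0.16 and 0.26 and NOTCH3 at 0.10 and 0.17, and none of these 3 passed. SRF itself, named after its values were seen, was at 0.16 in HSLC and 0.01 in NSLC (adjusted p = 0.562). MYOCD was barely above the array medians, with intensities of 84.0, 88.8, 101 and 88.2 in HSLC on high and low sodium and NSLC on high and low sodium.

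Markers of several other cell types differed between the diets beside the contractile genes. The sums given here are of deposited intensities, before normalization, and bright genes dominate them. The summed intensity of the 10 members was 10578 on high and 6170.2 on low sodium in HSLC, and 17895 on high and 6572 on low sodium in NSLC. TAGLN alone gave 4865 on high and 2718 on low sodium in HSLC, and 7112 on high and 2882 on low sodium in NSLC. The summed intensity of 14 fibroblast and matrix markers was 15416 on high and 6650.1 on low sodium in HSLC, and 17746 on high and 5009 on low sodium in NSLC, and 6 of 9 detected ones rose in the limma fit (8.72% of all genes). Their largest log2 diet ratios were those of FBLN1, at 1.47 in HSLC and 2.17 in NSLC, S100A4, at 1.63 and 1.21, and COL1A1, at 1.48 and 1.57. The detected ones that did not pass, named after their values were seen, were COL3A1, FBLN2 and C7. COL3A1 was at 0.06 in HSLC and 0.05 in NSLC, FBLN2 at -0.01 and 0.60, and C7 at 0.18 and 0.37. The decorin gene DCN, named after its values were seen, rose by 1.18 (adjusted p = 2.81e-06) and alone gave 7999 of the summed intensity on high and 3625 on low sodium in HSLC, and 8793 on high and 2620 on low sodium in NSLC. LUM, POSTN, FN1 and THY1 were detected on no array, and how well probes designed on human genes match baboon transcripts was not tested. Of 10 detected endothelial markers 2 rose and 1 fell (8.72% and 7.05% of all genes), with VWF at 0.82 in HSLC and 1.15 in NSLC and KDR at -0.26 and -0.64. Of 8 detected pericyte and mesangial markers 1 rose, PDGFRB, at 0.49 in HSLC and 0.36 in NSLC, and 1 fell, ANPEP, at -0.45 and -0.59, a peptidase that the proximal tubule brush border also carries. Macrophage and tubule markers also differed. All 5 macrophage markers detected on all 4 arrays rose (8.72% of all genes), with LYZ at 1.58 in HSLC and 1.20 in NSLC, C1QC at 0.97 and 0.68 and CD68 at 0.60 and 0.89, and the summed intensity of 7 was 4754 on high and 2280.0 on low sodium in HSLC, and 4591 on high and 1991 on low sodium in NSLC. MS4A7 was detected on no array, and CD163, detected on 3 arrays and named after its values were seen, was at 0.01 in NSLC. Of 6 injured tubule markers 5 rose (8.72% of all genes). SERPINA3 stood at 2.51 in HSLC and 3.44 in NSLC, HAVCR1 at 2.66 and 2.67 and SOX4 at 1.49 and 1.70. The exception was LCN2, named after its values were seen, at -0.07 in HSLC and 0.07 in NSLC. The summed intensity of 8 injured tubule markers was 4985 on high and 1499 on low sodium in HSLC, and 6169 on high and 1226 on low sodium in NSLC. These ratios of SERPINA3 and HAVCR1 were larger than those of ACTG2. In the other direction, 9 of 10 proximal tubule markers fell (7.05% of all genes), with MIOX at -1.02 in HSLC and -0.69 in NSLC, FBP1 at -1.01 and -0.57 and HAO2 at -0.89 and -0.40. The exception was LRP2, named after its values were seen, at -0.38 in HSLC and 0.32 in NSLC. The summed intensity of 11 proximal tubule markers was 10225 on high and 13801 on low sodium in HSLC, and 17758 on high and 14969 on low sodium in NSLC, so the sums ran in opposite directions in the phenotypes before normalization. Of 5 distal nephron markers 2 rose and 3 fell (8.72% and 7.05% of all genes). KLK1 stood at -1.44 in HSLC and -1.36 in NSLC and SLC12A3 at -0.89 and -1.10. The 2 that rose were SLC12A1, at 0.19 and 1.11, and AQP2, named after its values were seen, at 0.34 and 0.60. Of 6 podocyte markers 0 rose and 1, CLIC5, fell, at -0.83 and -0.65.

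The part of fibroblasts, vessels, pericytes, macrophages and tubules in the ACTG2, MYH11, ACTA2 and TAGLN ratios was not tested.

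The epithelium of the renal pelvis, which lies on visceral smooth muscle, was looked at because ACTG2 is a visceral gene. The summed intensity of 9 urothelial markers was 762 on high and 797 on low sodium in HSLC, and 813 on high and 860 on low sodium in NSLC, and KRT20 was detected on no array. None of the 5 detected ones passed in the limma fit in either direction, with 3 lower at an unadjusted p of 0.05. The uroplakin gene UPK2 was at -0.03 in HSLC and -0.44 in NSLC. The intensities of these 5 lay between 85.6 and 144, close to the array medians of 68.2 to 79.5, where the processing compresses ratios. The amount of renal pelvis tissue was not tested. Of 9 genes listed for visceral smooth muscle, ACTG2 itself and PGM5 rose and 0 fell in the limma fit (8.72% and 7.05% of all genes), with 1 lower at an unadjusted p of 0.05. The list also holds DES, and its median was -0.16 in HSLC and 0.21 in NSLC.

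Genes with the profile most like that of ACTG2 were sought by the distance between centred log2 values over the 4 arrays. The nearest was DIO2, a deiodinase that activates thyroid hormone, at a distance of 0.29, with diet ratios of 1.38 in HSLC and 2.76 in NSLC. RASD1 followed at 0.57, CST6 at 0.71, FXYD4 at 0.74 and FBLN1 at 0.74, and the nearest member, MYH11, was at 0.78. For MYH11 the nearest genes were the complement protease C1S at 0.31, RASD1 at 0.33, the epithelial transcription factor ELF3 at 0.34, FXYD4 at 0.35 and the secretin receptor SCTR at 0.36. ACTA2 and TAGLN were at 0.47 and 0.50 from MYH11. A distance over 4 arrays is a description without a test.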

How the data were processed

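Per the labels, Trizol-extracted total RNA was purified with RNeasy and labelled with Illumina TotalPrep and Cy3. The authors' deposited sample files hold a linear intensity per probe, made with BeadStudio per the submitters' processing notes. The sources used here give no version and do not state background correction, normalization or pooling. Of 48702 probes, 1 was listed at 0 and left out, 35 carry several symbols and 24979 none. Ratios were taken after normexp correction with an offset of 50, quantile normalization and log2 (limma 3.58.1, R 4.3.3), with the brightest probe per gene. The alternatives were other scalings, an offset of 16, no background correction, another or no detection limit, the mean over probes, a 1.5-fold rule, a variance trend and the series matrix, a second deposited intensity table. The offset compresses ratios of dim genes. The limma fit covered 11908 genes detected on all 4 arrays, with Benjamini-Hochberg adjustment and a threshold of 0.05. It was also run on simulated arrays, copies of a single array with added noise and planted changes equal in both phenotypes. The simulated arrays hold no spread between animals and no tissue mix, so that run does not show how well the p-values hold here. The number of arrays limits the precision. The members and gene lists were chosen with earlier results of these data known. The named list genes are up to 4 per pathway list and 3 per marker list with the largest absolute diet ratio, plus each direct relative of a member. No sequence or genome position is given, since the probe table pairs probes with symbols alone.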

Additional observations from a re-analysis of the deposited data

Results flagged for a closer look

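The ratio of HSLC to NSLC had opposite signs on the 2 diets for 3 members, and with 1 array per group the difference was not tested. ACTG2 was at -0.95 on high sodium and 0.23 on low sodium, MYH11 at -0.66 and 0.13, and LMOD1 at 0.21 and -0.0827.

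The ratio of high to low sodium had opposite signs in the 2 phenotypes for 27 of 137 listed genes other than the members (19.7%), and for 26.7% of all genes, again untested. Those of the 27 genes that are named in the report or by the rule for named genes are given here. TPM1 was at -0.47 in HSLC and 0.31 in NSLC, TPM2 at -0.43 and 0.27, DES at -0.87 and 0.21, and ATP2A2 at -0.85 and 0.0221. For these 4 genes the HSLC low sodium array was the highest of the 4 arrays, and it also held the most skeletal muscle signal, whose part was not tested. HSPB1 was at -0.34 in HSLC and 0.14 in NSLC, LRP2 at -0.38 and 0.32, LMOD3 at 0.24 and -0.0190, TEK at -0.00526 and 0.41, and MYOCD at -0.00577 and 0.15. LCN2 was at -0.07 in HSLC and 0.07 in NSLC, and FBLN2 at -0.01 and 0.60.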

How the results depend on the processing

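In HSLC and in NSLC the members at 2-fold on high sodium numbered 1 and 2. They numbered 2 (with ACTA2) and 4 (with ACTA2 and TAGLN) without normalization, where 0.657% and 1.99% of all genes were, and with median scaling (0.697% and 1.63%), and 4 and 4 with a 1.5-fold rule (2.28% and 2.31%). The median of all genes in NSLC stood at 0.28 without normalization and at 0.23 with median scaling. With HSLC against NSLC on high sodium, the members 2-fold lower numbered 0, but 1 with cyclic loess (0.455% of all genes) or median scaling (0.943%), 2 without normalization (1.26%) and 2 at 1.5-fold (2.16%). For the difference of diet ratios the count of 1 became 2 without normalization (0.865% of all genes), with median scaling (0.63%) and at 1.5-fold (1.23%), and 0 with the series matrix (0.304%). In the limma fit of diet, 1 member, LMOD1, fell with an offset of 16 (8.25% of all genes) or detection above the 75th percentile (11.1%). In the fit of phenotype, 2 members were lower in HSLC, but 1 with cyclic loess (1.05% of all genes), with median scaling (1.39%) or without normalization (1.53%), and 0 with no detection filter (0.00533%) or the series matrix (2.08%). The cause of these shifts was not tested. The phenotype effect changed sign for MYL9 with the series matrix (0.0194) and for LMOD1 without normalization (-1.12e-05), both near 0. The 5 members that rose with diet kept their direction in every alternative run, and MYL9 lost its call in 4. No paired analysis was possible because each group has 1 array, and no array could be left out of a group. CNN1 and SYNPO2 near the detection limit give little more than a bound.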
